A study of Caenorhabditis elegans with 4 samples.

Results

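Chaperones are proteins that help others to fold, and each compartment of the cell keeps its own set. The 10 genes described here are *hsp-1* and *hsp-110* of the cytosol, *hsp-3*, *hsp-4* and *crt-1* of the endoplasmic reticulum (ER), *ire-1*, *xbp-1* and *pek-1* of the ER stress pathway, and *hsp-6* and *hsp-60* of the mitochondria. They were chosen by name out of 17118 genes with a probe set of their own, and every probe set that the array platform assigns to one of these symbols was taken. This gave 16 probe sets of the 22625 on the array. *hsp-110*, *ire-1*, *xbp-1*, *pek-1*, *hsp-6* and *hsp-60* have 2 probe sets each, which share their RNA sample and are not replicates.

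Misfolded protein in the ER is sensed by membrane proteins that raise chaperone transcription and slow translation, a program called the unfolded protein response (UPR). Mitochondria have a UPR of their own, for which transcription of *hsp-6* and *hsp-60* is the usual readout in worms. In the cytosol the corresponding program is the heat shock response, whose inducible genes are kept low without stress.

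The samples were total RNA of whole 1 day adult animals of the N2 Bristol strain, kept at 20 °C on OP50 bacteria, either wild type or *kgb-1(km21)*. KGB-1 is a stress-activated protein kinase of the JNK family. Animals of all groups were collected in water and held for 1 h at room temperature in water or in 1 mM copper sulfate. Each of the 4 conditions has 1 Affymetrix array, so no ratio within a genotype has a replicate check.

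Signals are MAS5 intensities in arbitrary units, scaled by the authors to one trimmed mean of 500.1 per array. Between 10411 and 10618 probe sets reached 100, the minimum used here, on each array. Among 18 hybridization controls the SD of the log2 ratio between arrays was 0.18 to 0.22. Their mean log2 ratio of *kgb-1* over wild type was −0.13 in water and −0.15 in copper. For copper over water the mean was 0.06 in wild type and 0.04 in *kgb-1*. The part of these offsets in the members' values was not tested. The *kgb-1* probe set gave 129 in water and 314 in copper in wild type, and 179.5 and 229 in *kgb-1* animals. Its place relative to the *km21* lesion is not given in the sources used here, so it checks no label. Yolk protein and oocyte markers were above 100 on all arrays. The summed signal of the 5 sperm probe sets was 5076 and 5195 in wild type and 3965 and 3909 in *kgb-1*. Of these 5, 3 were tested and reached 100 on every array, and the remaining 2 stayed below 100.

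The first question was whether 1 h of copper changed chaperone transcripts. A linear model with copper and genotype gave the copper change shared by both genotypes, with an error that combines the disagreement between them, 1 degree of freedom, with the typical disagreement of probe sets of like brightness, 5.19 prior degrees of freedom. Of the 16 probe sets, 0 passed an adjusted p under 0.05 in limma with Benjamini-Hochberg adjustment, beside 1.53% of all 11266 probe sets tested. At an unadjusted p under 0.05 there were 3 of 16, beside 12.8% of those tested. The same 3 had an interval wholly above 0, beside 6.98% of those tested. The 95% interval of the shared change lay inside 2-fold either way for all 16, beside 89.0% of those tested, and inside 1.5-fold for 12, beside 63.0%. In whole animals, fewer cells of a type and less RNA per cell cannot be told apart.

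**Figure D1:**
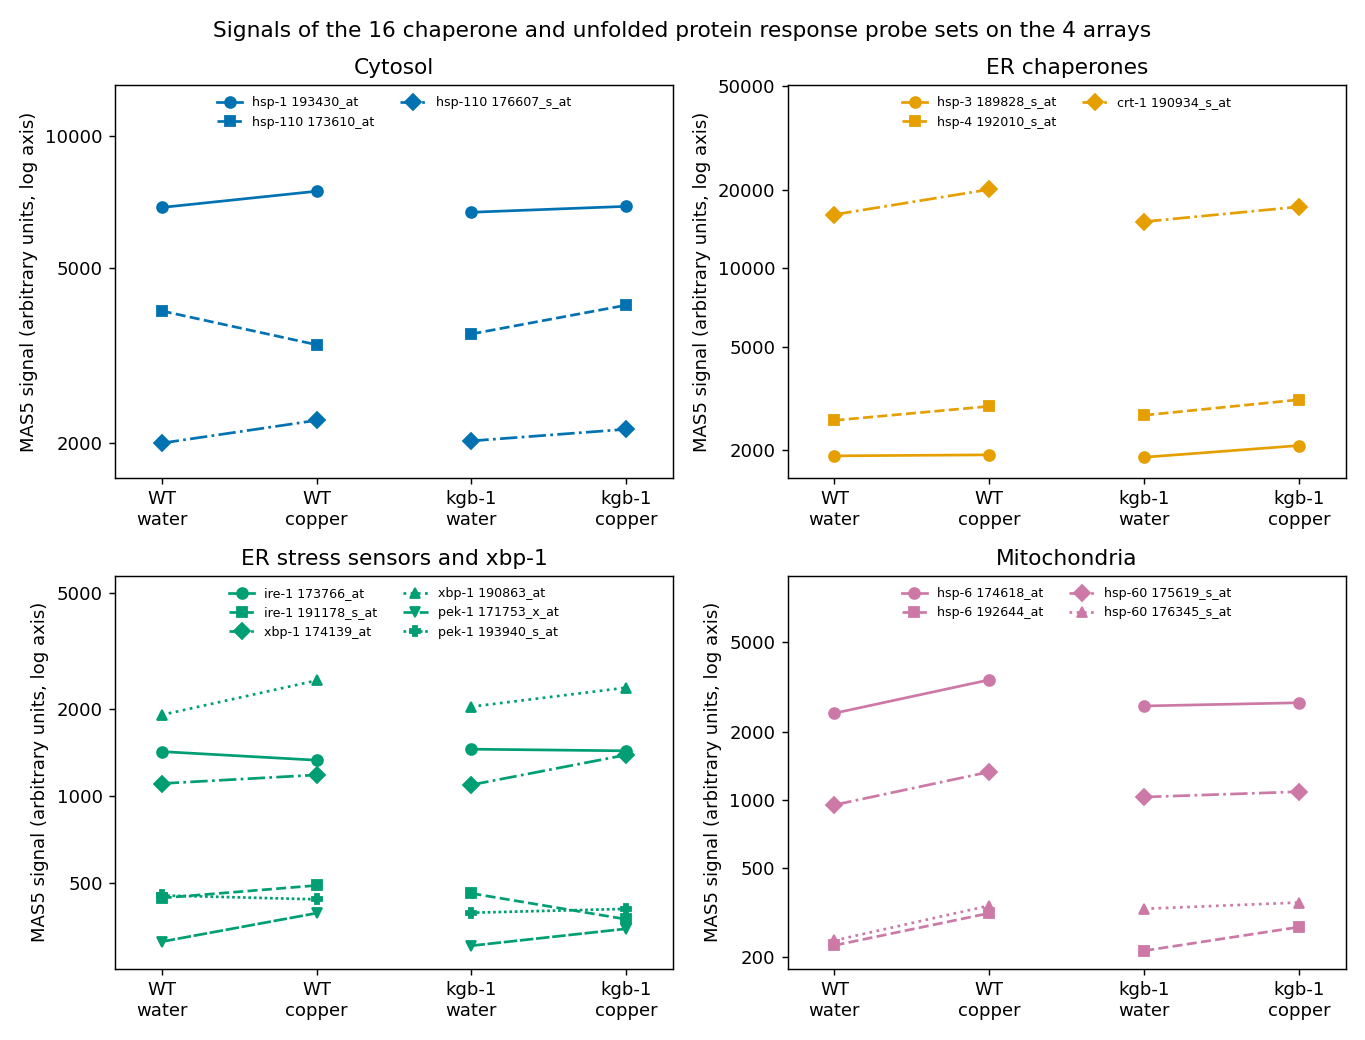
MAS5 signal (arbitrary units, log axis) of each of the 16 probe sets on the 4 arrays, one panel per group of genes, with a line joining water and copper within a genotype. All 16 lie at 214 or above on every array, and the 4 mitochondrial lines climb more between the wild-type points than between the *kgb-1* points.

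The 2 cytosolic genes differed little with copper. *hsp-1*, the constitutive Hsc70 of the worm cytosol, gave 6883 in water and 7494 in copper in wild type, and 6711 and 6923 in *kgb-1*. Copper was the higher array in both genotypes, by 1.09-fold and 1.03-fold. The shared log2 change was 0.08 ± 0.077 (SE), and its 95% interval ran from 0.931-fold to 1.21-fold (limma adjusted p = 0.705). *hsp-110* encodes the nucleotide exchange factor that resets Hsc70. Its probe set 173610_at gave 3999 and 3348 in wild type and 3543 and 4122 in *kgb-1*, so copper was lower in one genotype and higher in the other. The shared log2 change was −0.02 ± 0.129, from 0.794-fold to 1.23-fold (limma adjusted p = 0.971). The second probe set, 176607_s_at, gave 1998 and 2251 in wild type and 2021 and 2148 in *kgb-1*. There copper was higher in both, with a shared log2 change of 0.13 ± 0.099 (limma adjusted p = 0.642).

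The ER chaperones were all brighter in copper in both genotypes, each by under 1.3-fold. *hsp-3* and *hsp-4* encode the worm's 2 BiP proteins, the Hsp70 chaperones of the ER lumen, of which *hsp-4* is the one known to respond strongly to ER stress. Each is measured by a probe set with the suffix s, whose probes can match other transcripts, and how far these close paralogs share signal was not tested. *hsp-4* gave 2611 in water and 2956 in copper in wild type, and 2731 and 3134 in *kgb-1*. Copper was above water in both genotypes, at 1.13-fold and 1.15-fold. The shared log2 change was 0.19 ± 0.092, and its interval, 0.976-fold to 1.33-fold, includes no change (limma adjusted p = 0.466). *hsp-3* gave 1907 and 1925 in wild type and 1884 and 2089 in *kgb-1*. The ratios were 1.01 and 1.11, and the shared log2 change was 0.08 ± 0.102 (limma adjusted p = 0.789).

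*crt-1* encodes calreticulin, the calcium-binding lectin chaperone of the ER. Its signals were 16101 in water and 20109 in copper in wild type, and 15121 and 17252 in *kgb-1*. Copper was above water in both genotypes, and wild type was above *kgb-1* in either treatment. The ratios were 1.25 and 1.14, and the shared log2 change of 0.26 ± 0.066 had an interval of 1.07-fold to 1.33-fold. This was the smallest p of the 16 in the copper comparison, 0.00767 in limma before adjustment and 0.178 after it. A shared change at least as large was found for 13.2% of all probe sets tested. With quantile normalization the shared log2 change of *crt-1* was 0.12 (limma adjusted p = 0.481).

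*ire-1* encodes the ER membrane kinase and nuclease that splices the mRNA of *xbp-1*, and XBP-1 is the transcription factor made from the spliced form. The sources used here do not place the probes within the transcripts, so spliced and unspliced *xbp-1* cannot be told apart. Probe set 190863_at of *xbp-1* gave 1901 in water and 2500.0 in copper in wild type, and 2029.7 and 2361 in *kgb-1*. Copper was above water in both, by 1.32-fold and 1.16-fold. The shared log2 change was 0.31 ± 0.103, from 1.04-fold to 1.47-fold (limma adjusted p = 0.298). Probe set 174139_at gave 1101 and 1179 in wild type and 1089.6 and 1383 in *kgb-1*. It too was higher in copper in both, here with the larger ratio, 1.27, in *kgb-1*. The shared log2 change was 0.22 ± 0.117 (limma adjusted p = 0.504).

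The kinase genes upstream were not uniform. *ire-1* probe set 173766_at gave 1419 and 1326 in wild type and 1447 and 1428 in *kgb-1*, and was the one probe set of the 16 that was lower in copper in both genotypes. Its shared log2 change was −0.06 ± 0.105, from 0.804-fold to 1.15-fold (limma adjusted p = 0.857). The other, 191178_s_at, gave 442 and 489 in wild type and 459 and 374 in *kgb-1*. Copper was higher in wild type and lower in *kgb-1*, where the single array at 374 stood below the other 3. *pek-1* encodes PERK, the kinase that slows translation under ER stress. Probe set 171753_x_at gave 313 and 392 in wild type and 303 and 346 in *kgb-1*, a shared log2 change of 0.26 ± 0.134 (limma adjusted p = 0.489). Its second probe set, 193940_s_at, gave 452 and 438 in wild type and 394 and 406 in *kgb-1*, and its interval ran from 0.810-fold to 1.23-fold. For neither kinase gene did both probe sets give one direction in both genotypes.

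**Figure D2:**
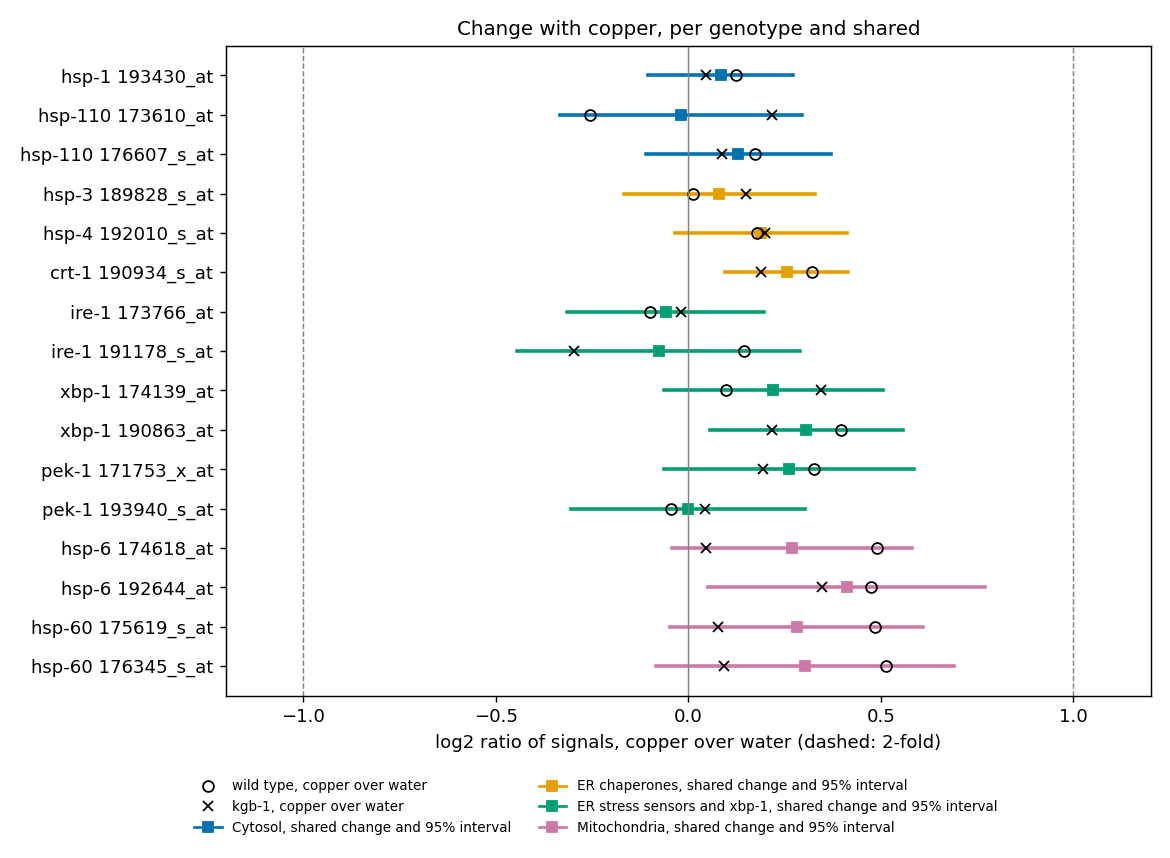
Log2 ratio of copper over water for each probe set in wild type and in *kgb-1* (separate markers), with the shared change of the additive model (square) and its 95% interval (line). The 16 intervals lie within the dashed 2-fold lines, and those of *crt-1*, *xbp-1* 190863_at and *hsp-6* 192644_at lie above 0.

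The largest wild-type ratios of the 16 were those of the mitochondrial genes. *hsp-6* encodes the Hsp70 of the mitochondrial matrix. Probe set 174618_at gave 2412 in water and 3389 in copper in wild type, and 2596 and 2683 in *kgb-1*. The wild-type copper array stood apart from the other 3, which lay within 2412 to 2683. The ratios were 1.41 in wild type and 1.03 in *kgb-1*, and the shared log2 change was 0.27 ± 0.128, with an interval of −0.04 to 0.58 (limma adjusted p = 0.459). Probe set 192644_at gave 226 and 314 in wild type and 214 and 273 in *kgb-1*, so that copper exceeded water in both, by 1.39-fold and 1.27-fold. Its shared log2 change, 0.41 ± 0.148, was the largest of the 16, with an interval of 1.04-fold to 1.71-fold (limma adjusted p = 0.329).

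*hsp-60* encodes the ring-shaped chaperonin of the matrix. Probe set 175619_s_at gave 947 and 1326 in wild type and 1026 and 1083 in *kgb-1*, again with the wild-type copper array alone above the rest. The ratios were 1.40 and 1.06, and the shared log2 change was 0.28 ± 0.135 (limma adjusted p = 0.462). Probe set 176345_s_at gave 238 and 339 in wild type and 328 and 349.9 in *kgb-1*. Its wild-type ratio of 1.43 had another basis, since here the wild-type water array was low and the other 3 lay close together. The shared log2 change was 0.30 ± 0.159 (limma adjusted p = 0.499).

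Across these 4 probe sets the wild-type ratios thus lay between 1.39 and 1.43, and the *kgb-1* ratios between 1.03 and 1.27. A wild-type ratio at or above 1.39 was found for 8.74% of all probe sets tested, and for 3.6% of the 7923 with at least 200 on every array, which include all 16. With 1 array per condition the difference between genotypes has no test. The 2 copper ratios of *hsp-60* 175619_s_at lay 0.41 apart on the log2 scale, and a gap at least that wide, either way, was found for 23.9% of all probe sets tested and 15.3% of those with at least 200 on every array. With the arrays scaled to one median instead, the 4 wild-type ratios were 1.27 to 1.30.

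**Figure D3:**
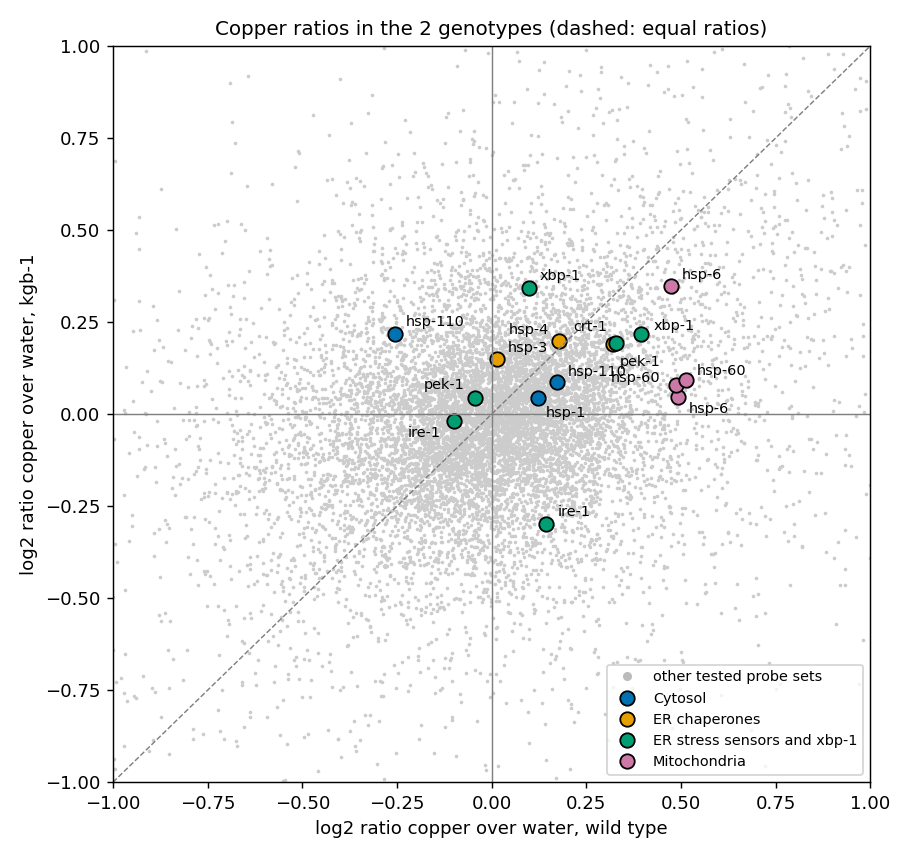
Log2 ratio of copper over water in wild type (horizontal) against that in *kgb-1* (vertical), for the 16 probe sets in colour and the other tested probe sets within the axes in grey. The 4 mitochondrial probe sets lie to the right, at 0.47 to 0.51 in wild type, and 12 of the 16 lie to the upper right of the origin, where copper is higher in both genotypes.

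By direction alone, 12 of the 16 probe sets were higher with copper in both genotypes, beside 29.9% of all probe sets tested and 27.5% of those with at least 200 on every array. In wild type 13 were higher, beside 51.7%, and in *kgb-1* 14, beside 48.9%. In 3 the genotypes went opposite ways, beside 40.8%. The median log2 ratio of the 16 was 0.18 in wild type and 0.12 in *kgb-1*, beside 0.01 and −0.01 over all tested. These directions lean on the scaling of the arrays. Scaling to one median moved every log2 ratio in wild type down by 0.13, which left 9 of 16 higher in both, beside 18.8% of all tested, with *hsp-1*, *hsp-3* and *xbp-1* 174139_at then lower in wild type. Quantile normalization left 12 of 16, beside 27.9%. The yolk protein markers moved the same way with copper, their summed signal being 180994 in water and 198567 in copper in wild type and 169936 and 189347 in *kgb-1*. Of 8 yolk probe sets, 6 were higher in both genotypes, the median shared log2 change was 0.15, and the smallest limma adjusted p was 0.0812. Their part in the members' values was not tested. By size, 0 of 16 passed 1.5-fold in either genotype, where 6.22% of probe sets rose and 4.64% fell past it in wild type, and 4.17% and 3.12% in *kgb-1*.

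The other genes of the same compartments were taken as lists: co-chaperones, the CCT chaperonin and prefoldin for the cytosol, folding and degradation factors for the ER, and import, folding and protease factors for the mitochondria. In limma 0 of 44 cytosolic, 0 of 28 ER and 0 of 25 mitochondrial probe sets tested passed for copper. At an unadjusted p under 0.05 in limma there were 5, 3 and 1, beside 12.8% of all probe sets tested. Of these, 3 cytosolic ones were higher and 2 lower with copper, all 3 ER ones were lower, and the 1 mitochondrial one was higher. The median shared log2 changes of the lists were 0.04, 0.02 and 0.07, beside −0.00 over all tested.

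In the cytosolic list the largest shared changes were those of *cct-8*, a CCT subunit, *hsb-1*, a negative regulator of the heat shock factor HSF-1, *unc-23*, a BAG co-chaperone, and *sti-1*, which links Hsp70 with Hsp90. *hsb-1* 175586_at gave 1989 in water and 1419.8 in copper in wild type, and 2047 and 1654 in *kgb-1*. Copper was below water in both genotypes, with a shared log2 change of −0.40 (limma adjusted p = 0.192). Its other probe set, 187945_at, did not share this, with 3026 and 3458 in wild type and 3186 and 2975 in *kgb-1*. *sti-1* gave 166 and 251 in wild type and 215 and 219.5 in *kgb-1* (limma adjusted p = 0.572). *cct-8* lay near the minimum, between 65.1 and 115, and *unc-23* 188334_at between 113 and 216.

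In the ER list the largest were *sel-11*, a ubiquitin ligase of ER-associated degradation, *dnj-27*, an ER J-domain protein, *ero-1*, the oxidase that supplies disulfide bonds, and *pdi-2*, a protein disulfide isomerase. *sel-11* 173176_at gave 1253 and 799.9 in wild type and 1085 and 971 in *kgb-1*, lower in copper in both (shared log2 change −0.40, limma adjusted p = 0.331). *pdi-2* 172947_at gave 367 and 472 in wild type and 430.04 and 481 in *kgb-1*, higher in both (limma adjusted p = 0.469). *dnj-27* and *ero-1* 176237_at were dim, with at least one array below 100 each.

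In the mitochondrial list, *Y22D7AL.10*, annotated as the neighbour of *hsp-60* with no protein-coding gene between them, encodes the homolog of Hsp10, the lid of the chaperonin. Its probe set 176369_s_at gave 230.1 and 319.8 in wild type and 256 and 295 in *kgb-1*, with a wild-type ratio of 1.39 and a shared log2 change of 0.34 (limma adjusted p = 0.430). Its 2 brighter probe sets did not share that size, with wild-type ratios of 1.13 for 176352_at and 1.01 for 171804_x_at. *atfs-1*, the transcription factor of the mitochondrial UPR, gave 414 and 504 in wild type and 539.6 and 688 in *kgb-1*. It was higher with copper in both genotypes and higher in *kgb-1* in both treatments (shared log2 changes 0.32 and 0.42, limma adjusted p = 0.350 and 0.294). *haf-1*, a peptide exporter of the matrix, was below 100 on 3 arrays, and *lonp-1* 188769_at, a matrix protease, had a shared log2 change of −0.22 (limma adjusted p = 0.555).

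For scale, the 3 inducible heat shock genes tested had larger shared changes than any of the 16. They were 3 of 10 listed, the others having no tested probe set of their own. In limma 0 of 3 passed the adjusted threshold, beside 1.53% of all probe sets tested. All 3 had an unadjusted p under 0.05 in limma, beside 12.8%. *hsp-70*, an inducible Hsp70, gave 260 in water and 382 in copper in wild type, and 234 and 424 in *kgb-1*. The small heat shock gene *hsp-16.2* gave 622 and 828 in wild type and 579.7 and 1077 in *kgb-1*. Its relative *hsp-16.41* gave 531 and 655 in wild type and 502 and 1106 in *kgb-1*. All 3 were higher with copper in both genotypes, as were 12 of the 16 members, beside 29.9% of all probe sets tested. The shared log2 changes of these 3 genes were 0.71, 0.65 and 0.72 (limma adjusted p = 0.105, 0.135 and 0.213). Their ratios were 1.23 to 1.47 in wild type and 1.82 to 2.20 in *kgb-1*, the larger ones in *kgb-1*, whereas the 4 mitochondrial probe sets had the larger ones in wild type. Neither contrast between genotypes was tested.

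**Figure D4:**
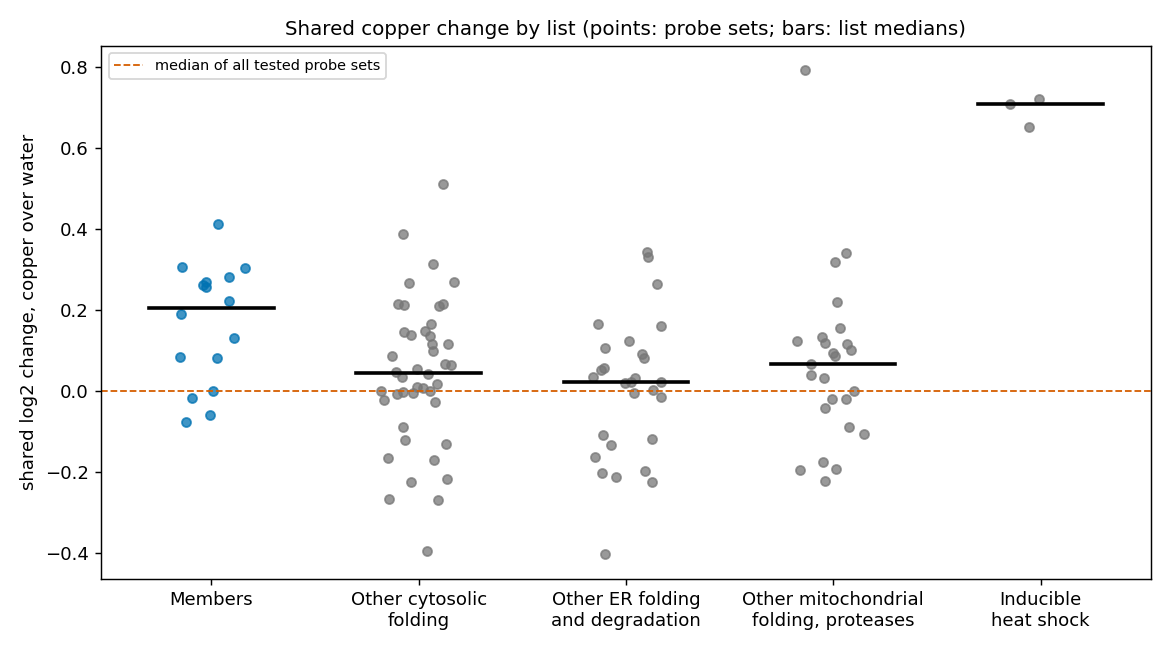
Shared log2 change with copper of every tested probe set among the 16 members and in the other gene lists (points), with the median of each (bar) and that of all tested probe sets (dashed line). The median of the members is 0.20, and the 3 inducible heat shock probe sets lie at 0.65 to 0.72.

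The second question was whether the *kgb-1* genotype changed the same transcripts. In limma 0 of 16 probe sets passed, beside 0.337% of all tested, and 0 had an unadjusted p under 0.05, beside 10.8%. The 95% intervals of the shared genotype difference lay inside 2-fold for all 16, beside 90.2%, and inside 1.5-fold for 15, beside 64.1%. In water 0 of 16 passed 1.5-fold, where 3.11% of probe sets were higher and 2.75% lower in *kgb-1* by that much. In copper it was again 0 of 16, beside 5.63% and 4.69%. For 8 of the 16 the difference had opposite signs in water and copper, beside 42.7% of all tested. The labels do not say which samples share a culture, and a difference between cultures of the strains cannot be told apart from genotype. The 3 tested sperm markers moved with genotype, all with an unadjusted p under 0.05 in limma. So did the ratio of 3' over 5' probe set of the catalase control, 4.61 and 4.62 in wild type, 3.63 and 2.90 in *kgb-1*. The same ratio for Gapdh was 1.01 and 0.912 in wild type and 0.942 and 1.08 in *kgb-1*. That for actin was 1.85 and 1.76 in wild type and 1.70 and 1.74 in *kgb-1*. At an unadjusted p under 0.05 in limma, 2 of 3 epidermal, 2 of 4 neuronal and 2 of 8 yolk probe sets also differed by genotype. The epidermal ones were 1 higher and 1 lower in *kgb-1*, the 2 neuronal ones higher and the 2 yolk ones lower. Among oocyte and germline markers 0 of 7 did so, among intestinal 0 of 4 and among muscle 0 of 5. Largest of the marker differences was that of the cuticle collagen gene *rol-6*, an epidermal marker named after its values were seen. Its signals were 203 and 259.6 in wild type and 113 and 101 in *kgb-1* (shared log2 difference −1.11, limma adjusted p = 0.152). The part of these markers in the members' values was not tested.

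*crt-1* had the smallest p in this comparison. Its *kgb-1* signals were 0.939 of wild type in water and 0.858 in copper, a shared log2 difference of −0.16 with an interval of −0.32 to 0.00 (limma adjusted p = 0.475). With quantile normalization this difference was −0.071 (limma adjusted p = 0.710). *hsp-60* 176345_s_at had the largest shared difference, 0.26, with ratios of 1.38 in water and 1.03 in copper (limma adjusted p = 0.619). The other *hsp-60* probe set gave 1.08 and 0.817, so the gene had no single direction. *hsp-6* 174618_at was 1.08 in water and 0.792 in copper, and 192644_at was 0.947 and 0.868. *hsp-4* was 1.05 and 1.06, and *hsp-1* was 0.975 and 0.924. *pek-1* was lower in *kgb-1* in all 4 of its ratios, 0.872 to 0.968, with limma adjusted p = 0.808 and 0.708. In limma 0 of 44 cytosolic, 0 of 28 ER and 0 of 25 mitochondrial probe sets of the other lists passed. Of the inducible heat shock probe sets 0 of 3 did so. At an unadjusted p under 0.05 in limma there were 2, 1, 1 and 0, beside 10.8% of all tested. The largest cytosolic differences were those of *unc-23* 188334_at, at −0.54 (limma adjusted p = 0.448), and of *cct-3*, another CCT subunit, whose signals of 48.9 to 119.6 lay around the minimum. *ckb-2*, a choline kinase gene used as a readout of the ER response, gave 881 in water and 825 in copper in wild type and 981 and 1242 in *kgb-1*. The *kgb-1* signal was above wild type in both treatments, with a shared log2 difference of 0.37 (limma adjusted p = 0.426).

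**Figure D5:**
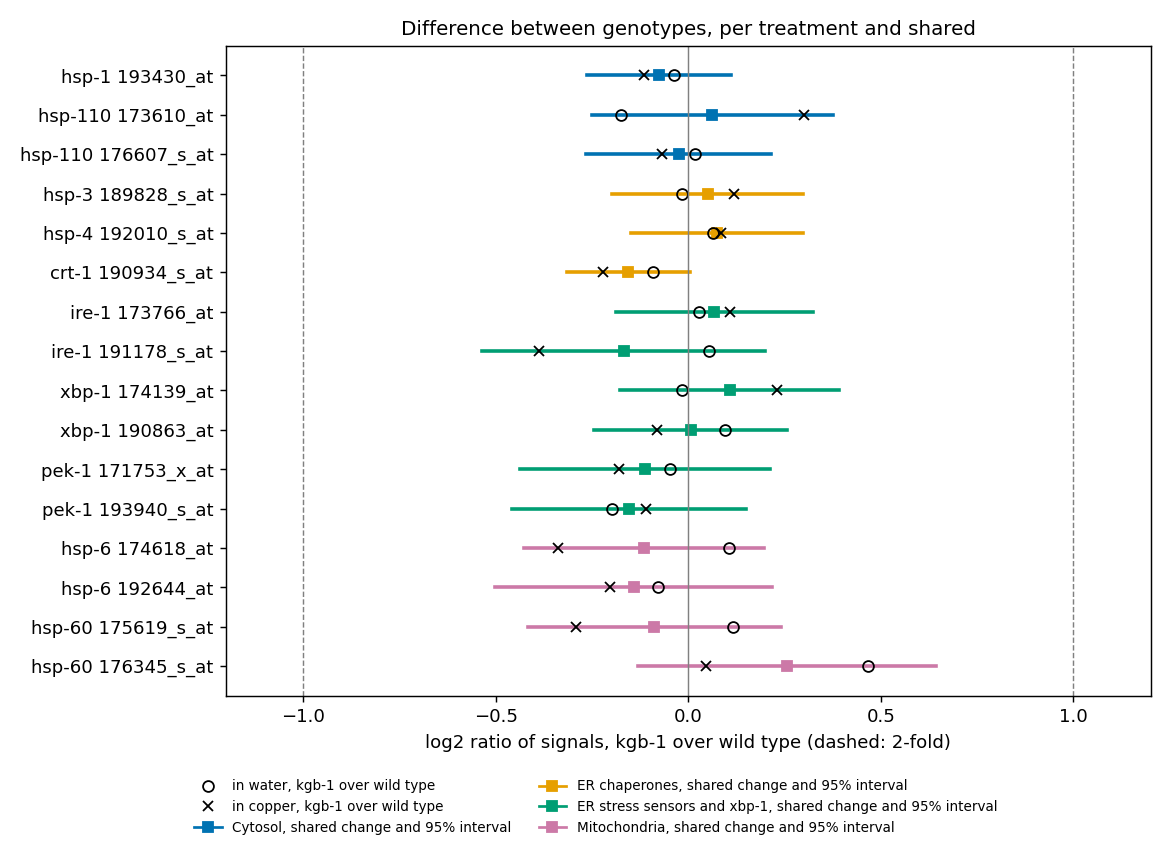
Log2 ratio of *kgb-1* over wild type for each probe set in water (circles) and in copper (crosses), with the shared difference (square) and its 95% interval (line). The 16 intervals lie within the dashed 2-fold lines and reach or cross 0, and the circle and the cross fall on opposite sides of 0 for 8 of the 16.

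Probe sets of one gene can differ by measurement error or by the transcripts they match, and these cannot be told apart here. For the 6 genes with 2 of them, the copper log2 ratios of the pair differed by a median of 0.27 in wild type and 0.14 in *kgb-1*, and had one sign in 3 of 6 genes in wild type and in 6 of 6 in *kgb-1*. The genotype ratios differed by a median of 0.17 in water and 0.32 in copper, with one sign in 3 and 2 of 6 genes. For *hsp-6* and *hsp-60* the pair differed by less than for the other 4 genes in the wild-type copper ratio, by 0.017 and 0.027. In other ratios they differed by more than any other pair, *hsp-6* by 0.30 in the *kgb-1* copper ratio and *hsp-60* by 0.35 in the ratio of the genotypes in water.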

How the data were processed

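One array per condition was hybridized with biotin-labelled cRNA of whole animals. The deposited values are linear MAS5 intensities made by the authors, and a check of the values showed each array scaled to a mean of 500.1 without its highest and lowest 2%. Probe sets were named by the platform's gene table, in which 20766 of 22625 carry 1 symbol, and 20701 of those matched RefSeq by Entrez identifier. Members were matched by symbol, and none lies on a probe set with several symbols. The suffixes s and x mark probe sets whose probes can match other transcripts. RefSeq was used for names and neighbours only. *daf-21* was matched as *hsp-90* once the tables were read, and *manf-1* matched no probe set.

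Log2 signals without an offset were fitted with limma 3.58.1 in R 4.3.3, with copper and genotype as factors, trended eBayes moderation and p adjusted by Benjamini-Hochberg over the 11266 probe sets, without the 77 controls, that reached 100 on any array. The fit has 1 residual degree of freedom and 5.19 prior degrees. Its error therefore rests more on the prior from other probe sets than on the disagreement between genotypes at the probe set itself, and an interaction cannot be tested. Intervals are 95% intervals from the moderated fit. Counts and plots used Python 3.11.15, numpy 2.4.6, pandas 2.3.3, scipy 1.17.1 and matplotlib 3.10.9. The number of arrays limits the precision.

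The members, the gene lists and the tests were chosen with earlier results of these data known. Named genes are all members and, of each other list, up to 4 with the largest shared copper change and up to 2 with the largest genotype difference. The shares of probe sets past the values of *hsp-6*, *hsp-60* and *crt-1*, and the subset with at least 200 on every array, were chosen after the values were seen. Alternatives were a signal minimum of 50, 200 or none, quantile normalization, scaling to one median, an offset of 32, raising signals below 100 to 100, no trend, probe sets without a suffix, each factor alone, and each array left out.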

Additional observations from a re-analysis of the deposited data

Results flagged for a closer look

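For 3 probe sets copper went opposite ways in the genotypes, a difference that could not be tested with 1 array per condition. The log2 ratio of *hsp-110* 173610_at was −0.26 in wild type and 0.22 in *kgb-1*, a difference of 0.47. That of *ire-1* 191178_s_at was 0.14 and −0.30, a difference of −0.44, and that of *pek-1* 193940_s_at was −0.045 and 0.044, a difference of 0.089. Opposite signs were found for 40.8% of all probe sets tested.

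For 8 probe sets the *kgb-1* difference went opposite ways in water and copper, also untested, where 42.7% of all probe sets tested did so. The change from water to copper in the log2 ratio of *kgb-1* over wild type was 0.47 for *hsp-110* 173610_at, −0.084 for *hsp-110* 176607_s_at, 0.14 for *hsp-3*, −0.44 for *ire-1* 191178_s_at, 0.24 for *xbp-1* 174139_at, −0.18 for *xbp-1* 190863_at, −0.44 for *hsp-6* 174618_at and −0.41 for *hsp-60* 175619_s_at. The last 2 are the probe sets on which the wild-type copper array was alone above the other 3.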

How the results depend on the processing

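The count of member probe sets called was 0 for copper and for genotype under every alternative run. Over the alternatives other than leaving out an array, the members' limma adjusted p was 0.161 to 1.00 for copper and 0.408 to 0.996 for genotype. Of 151 member values under alternatives other than leaving out an array, 2 changed sign for copper and 0 for genotype. The copper log2 change of *hsp-3* was −0.0011 with median scaling, and that of *pek-1* 193940_s_at was 0.00695 with quantile normalization. Quantile normalization also lowered the *crt-1* copper change from 0.26 to 0.12, and median scaling lowered the copper change of all 16 probe sets.

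Over all probe sets, copper calls, 133 higher and 39 lower, became 30 and 10 without the trend, 54 and 15 with unsuffixed probe sets, where fewer were tested, and 65 and 25 without genotype. Lower calls became 144 with median scaling. Genotype calls, 6 higher and 32 lower, became 11 and 52 at a minimum of 50, 1 and 22 at 200, 41 and 100 with median scaling, 0 and 2 with signals raised to 100, 0 and 0 without the trend, 0 and 12 with unsuffixed probe sets, and 0 and 2 without copper. The cause was not tested.

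With 1 array left out, both factors leave no residual degree of freedom, so calls came from limma with 1 factor on 3 arrays, in which the other factor is unbalanced and the lone array is assumed to vary like the pair. These calls are thus not made as those above. Copper calls ranged from 56 to 149 higher and 8 to 207 lower, and genotype calls from 0 to 1 and 0 to 3. Members' values are the ratio of the remaining complete pair, with no test. The copper log2 ranges that crossed 0 were −0.26 to 0.22 for *hsp-110* 173610_at, −0.30 to 0.14 for *ire-1* 191178_s_at and −0.045 to 0.044 for *pek-1* 193940_s_at. The genotype ranges that did so were −0.17 to 0.30 for *hsp-110* 173610_at, −0.067 to 0.017 for *hsp-110* 176607_s_at, −0.017 to 0.12 for *hsp-3*, −0.39 to 0.053 for *ire-1* 191178_s_at, −0.015 to 0.23 for *xbp-1* 174139_at, −0.082 to 0.095 for *xbp-1* 190863_at, −0.34 to 0.11 for *hsp-6* 174618_at and −0.29 to 0.12 for *hsp-60* 175619_s_at.

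No paired analysis was possible because the labels give each condition the same single replicate number. The model with both factors already compares the treatments within each genotype.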
